A study of Mus musculus with 13 samples.

Results

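Olfactory bulb RNA of mice exposed to the higher of 2 doses of PM2.5, airborne particulate matter of small diameter, was set against RNA of unexposed mice of the same set. The comparison holds 6 of the 13 libraries of the series. These are the 3 libraries labelled Pmhigh-2nd and the 3 labelled Ctrl-2nd, taken by label. The comparison itself was chosen with earlier results of these data known. Every mouse was labelled as C57BL/6 and wild type, and the series is labelled as male. The sample labels give an age of 7 to 8 weeks. Exposed mice received "10 mg/kg/3 day PM2.5" and control mice received no treatment. The sources used here do not give what "/3 day" means, the route of exposure, the time between exposure and dissection, or what separates the 1st from the 2nd set. The other 7 libraries are 4 controls and 3 libraries at 3 mg/kg, all of the 1st set. Within a group, libraries carry the numbers 1 to 3, and nothing says whether each came from a separate mouse, so p-values rest on the spread among these libraries, which may be technical.

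The olfactory bulb is the first relay of smell in the brain. Axons of sensory neurons enter it from the nasal lining, contact mitral and tufted cells in glomeruli, and are surrounded by ensheathing glia, astrocytes and microglia, so the tissue lies close to inhaled air. Inflammatory signals reach brain vessels and glia along a few well-known routes. NF-kB drives adhesion molecules, chemokines and acute phase proteins, interferons drive antiviral genes through STAT and IRF factors, and stress hormones act through the glucocorticoid receptor. Neuronal firing is read in RNA from immediate early genes such as Fos, whose transcripts appear and decay within a short time.

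The 6 libraries held between 15387870 and 26989267 counts, and control replicate 2 and exposed replicate 3 were the deepest. Markers of bulb neurons were present in all 6 libraries. Cdhr1, of mitral and tufted cells, stood at 131 to 183 FPKM, the deposited level scaled by gene length and library total. Th, of dopaminergic periglomerular cells, stood at 33.5 to 50.8 FPKM, Gad1, of granule cells and other inhibitory neurons, at 162 to 228 FPKM, and Omp, of sensory axons, at 32.9 to 68 FPKM. Xist was at 0.0992 to 0.555 CPM, counts scaled by library total, and the sum of 4 Y-linked genes at 176 to 230 CPM, as the male label has it. In the 7 libraries of the 1st set Xist stood at 2243 to 2710 CPM and the Y-linked sum at 0 to 0.209 CPM. Both go against that label. In a principal component analysis of the 6 libraries, the first component (39.9% of the variance) set control replicate 2 and exposed replicate 3 apart from the other 4, and the second (21.5%) set exposed libraries apart from controls.

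Genes that were higher in exposed bulbs in at least 1 of the fits described next included the vessel adhesion molecules Icam1, Sele and Vcam1, the chemokines Cxcl10, Ccl12 and Cxcl5, the complement genes C1qa, C1qb and C5ar1, the astrocyte filament gene Gfap and the interferon-stimulated genes Gbp2, Iigp1 and Ifitm3. The immediate early genes Npas4, Ier2 and Btg2 were lower. Of 17097 genes tested in the 6 libraries with edgeR's quasi-likelihood test and Benjamini-Hochberg adjustment, 4 were higher at an adjusted p under 0.05, a share of 0.0234%. They were Icam1, Cxcl10, Plin4 and Acer2. No gene was lower (0%). At an unadjusted p under 0.05, 653 genes were higher (3.82%) and 299 lower (1.75%). All 3 exposed libraries stood above all 3 controls in 1066 genes (6.24%) and below them in 727 (4.25%), judged on CPM scaled by library and TMM factor. Such genes are called separated below. An exact permutation test of a single gene in 3 against 3 libraries cannot give a 2-sided p under 0.1.

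The count of 4 depended on single libraries. It was 1 without control replicate 1, 2 without control replicate 2, 1 without control replicate 3, 0 without exposed replicate 1, 2 without exposed replicate 2 and 6 without exposed replicate 3. These were mostly other genes. Of the 4 named above, 4 were called without exposed replicate 3, 1 without control replicate 2 and 0 without any other single library. Without the deepest control and the deepest exposed library, 5 genes were higher and 2 lower, with 2 of the 4 named genes among them. This alternative was chosen after seeing the data. A fit of all 13 libraries, which shares 1 estimate of spread over 4 groups, tested 17467 genes. In it 91 genes were higher (0.521%) and 21 lower (0.12%) at the high dose. Of these 112, all but Ciita were also tested in the 6 libraries, and none of the 111 overlapped between exposed and control libraries. A call on the same libraries makes such separation likely, so it adds no support, here or for single genes below. DESeq2, run on the 6 libraries, called 119 genes higher and 27 lower, among them 90 of the 111. Below, "rose" and "fell" are used only of genes past an adjusted p of 0.05 in 1 of the edgeR fits, with the fit of 13 libraries meant unless the 6 libraries are named. Apart from Icam1, Cxcl10, Plin4 and Acer2, none of these genes passed in the 6 libraries alone. Their edgeR adjusted p-values there could be high, as for Msr1 (0.274), C1qa (0.355) and Scg2 (0.491). Such calls rest on a spread estimated with the 1st set included, whose Xist and Y-linked levels differ from those of the 2nd. Fold changes are log2 values from the 6 libraries.

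**Figure D1:**
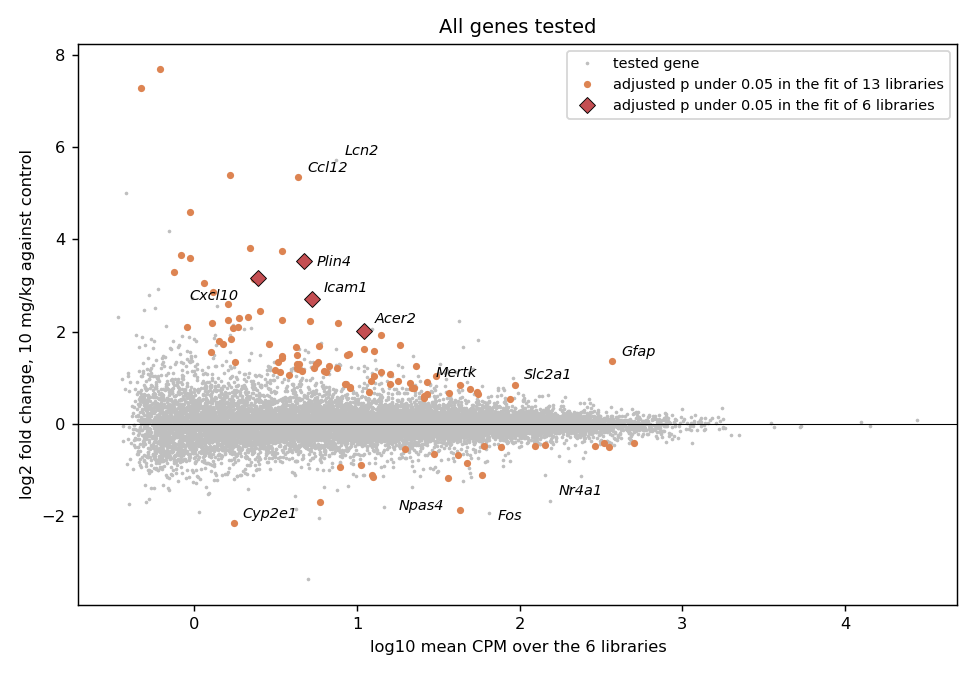
Log2 fold change at 10 mg/kg against control (vertical) and log10 mean CPM over the 6 libraries (horizontal) for the 17097 genes tested; diamonds mark the 4 genes past an adjusted p of 0.05 in the 6 libraries and orange points those past it in the fit of 13. Most orange points lie above 0 and at the low end of the expression range, while Gfap, Slc2a1 and Npas4 stand out among better expressed genes.

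Most genes that changed were of low abundance in control bulb. Of the 111 genes, 62 had a control mean under 1 FPKM, 29 lay between 1 and 10, and 20 at 10 or more. Among all genes tested, 3727 were under 1 FPKM and 4296 at 10 or more. The filter on low counts kept a gene when 1 group expressed it, so a gene near 0 in controls was tested only because exposed libraries held it. Counts and medians of a gene list below cover its tested members and describe only those, and their number is given. No median is read as a result for inflammatory and blood cell lists with many untested members. Since bulk RNA was measured, more cells of a type and more RNA per cell cannot be told apart in any result below.

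The 4 genes called in the 6 libraries belong to different pathways. Icam1 encodes an endothelial and glial adhesion molecule that leukocytes bind through integrins, and Cxcl10 a chemokine made in response to interferons. Plin4 encodes a protein that coats lipid droplets, and Acer2 a Golgi enzyme that breaks down ceramide. Their promoter sequences, with that of Gbp2, an interferon-induced GTPase, are shown because the gene groups described below are commonly defined by the factors that bind such regions. Each line gives the 250 bases before the RefSeq start on build GRCm38.p6, 5′ to 3′ on the gene's own strand. The deposited gene spans start elsewhere for 4 of the 5 genes: the last 21 bases of the Plin4 window, the last 18 of the Acer2 window and the last 61 of the Gbp2 window lie inside the deposited gene, and the Icam1 window ends 20 bases before it. Distances below are from the RefSeq start. Capitals mark matches, on either strand, to a NF-kB (kappaB) consensus, an interferon response core (GAAANNGAA), a STAT site (TTCNNNGAA), a steroid receptor core (ACANNNTGT), a cAMP response element (TGACGTCA) or a CArG box. The windows are chr9:21015690-21015939 (plus strand) for Icam1, chr5:92348890-92349139 (minus) for Cxcl10, chr17:56109783-56110032 (minus) for Plin4, chr4:86874164-86874413 (plus) for Acer2 and chr3:142620413-142620662 (plus) for Gbp2.
Icam1: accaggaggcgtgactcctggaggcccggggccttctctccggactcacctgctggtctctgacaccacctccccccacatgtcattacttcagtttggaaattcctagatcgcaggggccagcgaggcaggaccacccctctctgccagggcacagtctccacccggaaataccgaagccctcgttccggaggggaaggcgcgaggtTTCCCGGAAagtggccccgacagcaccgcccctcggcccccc
Cxcl10: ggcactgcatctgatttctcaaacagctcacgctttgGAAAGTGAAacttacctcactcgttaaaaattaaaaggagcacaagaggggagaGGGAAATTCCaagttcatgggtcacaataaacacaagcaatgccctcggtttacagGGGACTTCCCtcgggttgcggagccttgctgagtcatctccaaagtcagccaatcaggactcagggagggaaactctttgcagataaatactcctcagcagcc
Plin4: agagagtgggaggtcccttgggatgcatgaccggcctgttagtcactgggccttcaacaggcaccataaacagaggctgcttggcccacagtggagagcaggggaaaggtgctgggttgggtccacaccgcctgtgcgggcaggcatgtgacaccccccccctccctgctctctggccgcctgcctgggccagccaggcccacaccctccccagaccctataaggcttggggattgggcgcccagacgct
Acer2: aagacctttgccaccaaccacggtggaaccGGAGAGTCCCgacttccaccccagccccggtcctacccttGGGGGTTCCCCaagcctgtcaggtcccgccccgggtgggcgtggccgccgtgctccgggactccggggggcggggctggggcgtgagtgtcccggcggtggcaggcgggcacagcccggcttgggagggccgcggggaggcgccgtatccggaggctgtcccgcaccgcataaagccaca
Gbp2: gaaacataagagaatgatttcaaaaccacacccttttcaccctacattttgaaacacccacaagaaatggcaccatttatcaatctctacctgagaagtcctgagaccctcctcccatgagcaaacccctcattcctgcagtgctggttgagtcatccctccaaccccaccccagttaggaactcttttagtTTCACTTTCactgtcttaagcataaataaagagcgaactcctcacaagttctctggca
Icam1 held 1 palindromic STAT match 42 to 34 bases before its start. Its stretch tggaaattcc departs in the first base only from the kappaB consensus, which begins with GGG, and so is not marked. Cxcl10 held 2 kappaB matches, at 159 to 150 and 103 to 94 bases, and an interferon response core at 213 to 205 bases. Acer2 held kappaB matches at 220 to 211, 180 to 171 and 179 to 170 bases, of which the last 2 overlap. Gbp2 held an interferon response core on the opposite strand at 58 to 50 bases, inside the deposited gene span, and Plin4 held none of the 6 motifs. A match describes letters and not binding, and the search misses sites that depart from a consensus, so a lack of matches does not mean a lack of sites. Of 27025 genes with a window of this length, 4.46% held a kappaB match in at least 1 of their windows, 8.18% an interferon response core and 8.13% a STAT match. The shares were 5.66%, 7.48% and 7.17% among 11488 tested genes with a window. Among 62 such genes that rose they were 11.3%, 17.7% and 8.06%, or 7, 11 and 5 genes. For the steroid receptor core, the cAMP response element and the CArG box, the shares were 4.84%, 1.61% and 0% among genes that rose. They were 4.67%, 3.03% and 1.44% among tested genes.

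Icam1 (chr9:21015960-21028797 on mm10, as deposited) stood at 0.614, 0.496 and 0.554 FPKM in control replicates 1, 2 and 3 and at 3.25, 3.95 and 3.68 FPKM in exposed replicates 1, 2 and 3. The means were 0.555 ± 0.059 and 3.63 ± 0.354 FPKM (SD, n = 3 libraries each). Every exposed library lay above every control, by a wide margin and within a narrow spread. The log2 fold change was 2.71 (SE 0.23, edgeR adjusted p = 0.0153). Leaving out control replicate 1 or 3 or exposed replicate 1 or 2 ended the call, with edgeR adjusted p-values of 0.0643, 0.0652, 0.0606 and 0.0598, while the log2 fold change stayed between 2.62 and 2.79.

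Cxcl10 (chr5:92346638-92348889) stood at 0.0818, 0.117 and 0.103 FPKM in controls and 0.974, 0.82 and 0.986 FPKM in exposed libraries. The 2 groups were far apart and each was tight, on 29 counts in all controls and 294 in all exposed libraries. The log2 fold change was 3.16 (SE 0.30, edgeR adjusted p = 0.0221). Leaving out any library but exposed replicate 3 took its edgeR adjusted p to between 0.0526 and 0.135. Plin4 (chr17:56100591-56109803) stood at 0.0563, 0.0682 and 0.119 FPKM in controls and 0.804, 1.26 and 0.768 FPKM in exposed libraries, with exposed replicate 2 the highest. Its log2 fold change was 3.54 (SE 0.36, edgeR adjusted p = 0.0226). Acer2 (chr4:86874396-86934822) stood at 0.475, 0.546 and 0.651 FPKM in controls and 2.69, 2.38 and 1.75 FPKM in exposed libraries, with exposed replicate 3 the lowest. Its log2 fold change was 2.02 (SE 0.22, edgeR adjusted p = 0.0323). Plin4 and Acer2 also kept the call only without exposed replicate 3. Leaving out another library gave edgeR adjusted p-values of 0.0528 to 0.145 for Plin4 and 0.0796 to 0.159 for Acer2, and the log2 fold changes kept within 3.27 to 3.87 and 1.88 to 2.16.

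Just beyond the threshold in the 6 libraries stood 8 genes with the same edgeR adjusted p of 0.0635. These were Lilrb4a, Gfap, Ccl12, Slc2a1, Npas4, Lcn2, Sele and Mertk. All but Lcn2 passed in the fit of 13 libraries, and only Npas4 was lower.

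**Figure D2:**
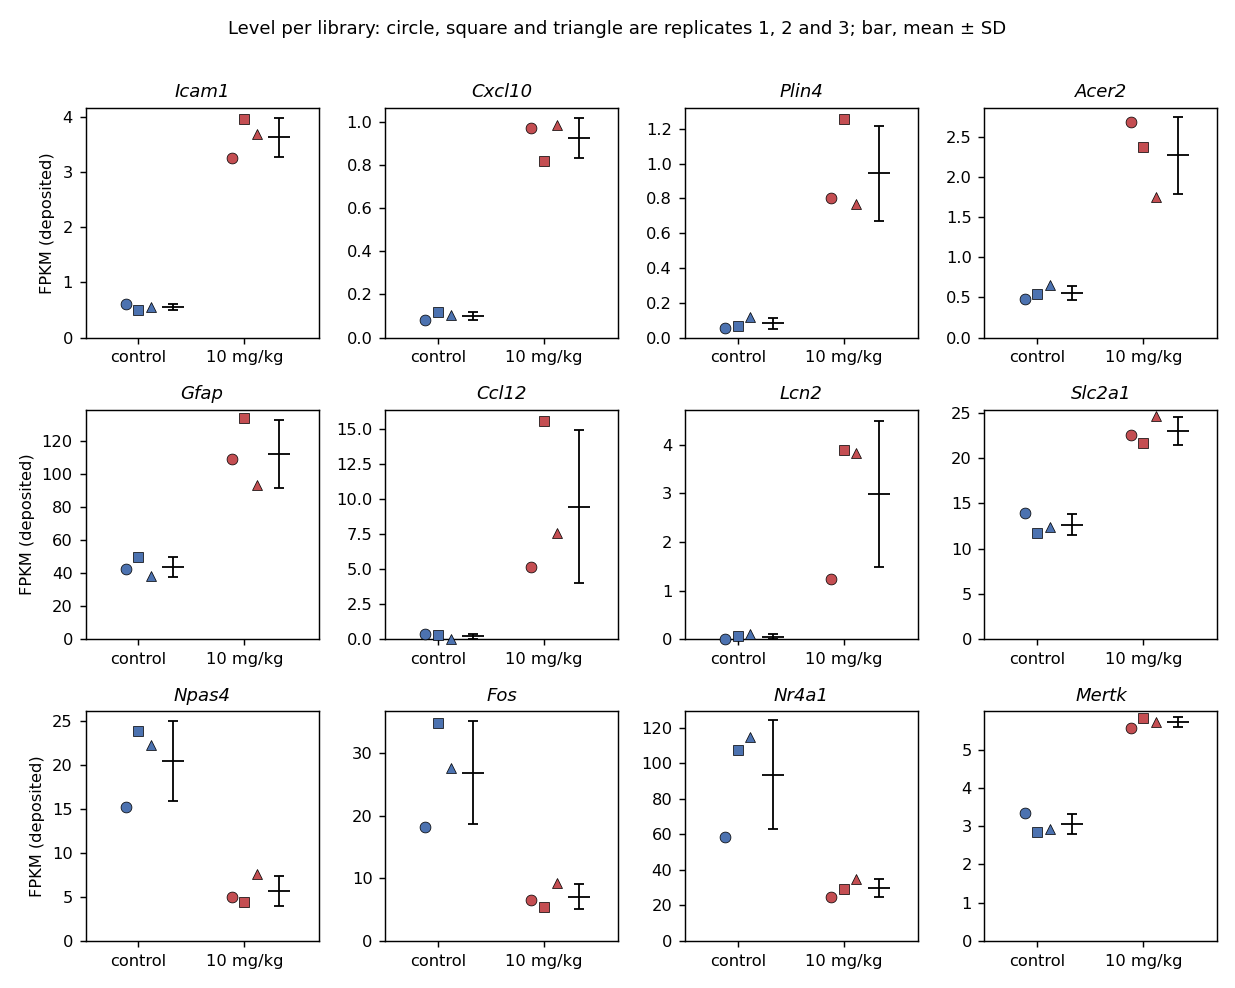
Deposited FPKM of 12 genes in each control and exposed library (circle, square and triangle are replicates 1, 2 and 3), with the mean and SD of each group beside the points. In every panel the 3 exposed libraries lie on 1 side of the 3 controls, above them except for Npas4, Fos and Nr4a1, and Ccl12 and Lcn2 spread widest among exposed libraries.

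Adhesion molecules of activated endothelium, which capture leukocytes from blood, included several genes that rose. Of 13 tested of 14 listed, 5 rose (Icam1, Sele, Vcam1, Lrg1 and Vwf), none fell, 6 were separated upward and 1 downward. Over all genes tested, 0.521% rose, 0.12% fell, 6.24% were separated upward and 4.25% downward. These are the shares against which the counts of every list below stand. All lists were chosen with earlier results of these data known, so an excess over these shares is a description and not a test. The adhesion list's median log2 fold change was 0.33, against -0.01 over all genes. Sele (E-selectin, made by endothelium only on activation) held no count in any control and stood at 0.419, 0.458 and 0.39 FPKM in exposed libraries. That is at least 23.8-fold higher than 3 counts over the control group would give. Vcam1 stood at 1.61, 1.47 and 1.5 FPKM in controls and 2.97, 2.34 and 3.22 FPKM in exposed libraries (log2 0.90, SE 0.15). Vwf, a clotting factor carrier stored in endothelium, went from 0.629, 0.282 and 0.407 FPKM to 1.45, 1.73 and 1.08 FPKM (log2 1.71, SE 0.29). Neither pair of groups overlapped. Lrg1, a secreted glycoprotein of endothelium and the acute phase, stood at 0.289, 0.274 and 0.0453 FPKM in controls and 1.7, 4.94 and 2.49 FPKM in exposed libraries (log2 3.82, SE 0.60). Pan-endothelial genes did not pass. Pecam1 was at 1.7 to 2.38 FPKM in controls and 1.99 to 2.08 FPKM in exposed libraries, and Cdh5 at 2.44 to 3.15 and 3.14 to 3.58 FPKM.

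Barrier genes of brain endothelium gave 1 rise among 14 tested. Slc2a1, the glucose transporter GLUT1 of barrier endothelium and glia, stood at 13.9, 11.7 and 12.3 FPKM in controls and 22.5, 21.6 and 24.7 FPKM in exposed libraries (log2 0.86, SE 0.11, edgeR adjusted p = 0.0635 in the 6 libraries). The exposed libraries were all above the controls with little spread. Tight junction genes Cldn5 (19.7 to 31.4 FPKM in controls, 20 to 35.6 FPKM exposed), Ocln and Tjp1 overlapped between groups. The list's median was 0.09. No gene of 10 tested for pericytes and smooth muscle passed or was separated.

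Chemokines, which guide leukocytes, included some of the highest folds. Of 9 tested of 24 listed, 3 rose (Ccl12, Cxcl10 and Cxcl5) and 1 fell (Cxcl12). Upward separation was found in 4 and downward in 1. The summed level of the list overlapped, at 83.6 to 162 FPKM in controls and 80.3 to 167 FPKM in exposed libraries. Ccl12, a ligand of the monocyte receptor CCR2, stood at 0.361, 0.288 and 0 FPKM in controls and 5.15, 15.6 and 7.61 FPKM in exposed libraries (log2 5.35, SE 0.69). The groups lay far apart, although exposed replicate 2 held more than the other 2 exposed libraries did. Cxcl5, a neutrophil attractant, went from 0.143, 0.278 and 0.297 FPKM to 1.25, 1.29 and 0.985 FPKM (log2 2.25, SE 0.36). Cxcl12, a homeostatic chemokine of stromal and neuronal cells, stood at 4.75, 3.2 and 3.94 FPKM in controls and at 2.38, 2.17 and 2.97 FPKM in exposed libraries (log2 -0.66, SE 0.18). Several chemokines were too low to be tested. Ccl2 held no count in controls and 0.205, 0.855 and 0.267 FPKM in exposed libraries, at least 15.9-fold above the limit of 3 counts. Cxcl1 held 2 counts in all controls and 46 in all exposed libraries, a depth-corrected ratio of 20.3 with a 95% counting interval of 5.31 to 173. Cx3cl1, the neuronal ligand of microglia, overlapped between groups at 48.8 to 135 FPKM in controls and 44.6 to 120 FPKM in exposed libraries.

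Among 8 chemokine receptors tested of 15 listed, 4 were separated upward. The neutrophil receptor Cxcr2 held no count in controls and 0.0371 to 0.0563 FPKM in exposed libraries, at least 4.42-fold above the 3-count limit. Ackr1, a chemokine-binding receptor of venules and red cells, was separated but did not pass, at 4.71, 8.04 and 1.5 FPKM against 15.3, 11.8 and 13.1 FPKM.

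Cytokines themselves were scarce. None of 10 tested of 19 listed rose or fell, and 1 was separated upward and 1 downward. Il1b was not tested in the 6 libraries and stood at 0, 0.063 and 0.052 FPKM in controls and 0.166, 0.61 and 0.433 FPKM in exposed libraries. Tnf stood at 0.0427, 0 and 0.0402 FPKM against 0.128, 0.438 and 0.129 FPKM. Il6 was at or under 0.0287 FPKM in all 6 libraries. The exposed libraries were above the controls for Il1b and Tnf, on 6 against 63 counts and 4 against 45 counts over the groups.

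Receptors for cytokines held more genes that passed. Of 18 tested, 3 rose (Osmr, Il4ra and Il1r1) and 7 were separated upward, with a median of 0.20. Osmr, the oncostatin M receptor, stood at 0.403, 0.359 and 0.362 FPKM in controls and 1.03, 1.61 and 0.832 FPKM in exposed libraries (log2 1.63, SE 0.26). Il4ra, of the interleukin 4 receptor, went from 0.419, 0.615 and 0.468 FPKM to 1.19, 2.13 and 1.01 FPKM (log2 1.52, SE 0.31). Il1r1, of the interleukin 1 receptor, went from 0.404, 0.234 and 0.243 FPKM to 0.572, 0.791 and 0.57 FPKM (log2 1.14, SE 0.29). None of the 3 overlapped between groups.

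NF-kB subunits and the feedback genes they induce gave no gene past the threshold among 17 tested, with 6 separated upward, 7 higher at an unadjusted p under 0.05 and a median of 0.23. Nfkbia, the inhibitor that NF-kB itself induces, stood at 8.45, 13.9 and 8.42 FPKM in controls and 18.2, 15 and 22.8 FPKM in exposed libraries (log2 0.85, edgeR adjusted p = 0.492). The subunits Rela and Nfkb1 overlapped between groups. In the promoter table, 6 of the 14 listed genes matched (42.9%) held a kappaB match, a share that uses no value of these libraries.

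In the JAK-STAT and C/EBP list, 2 of 16 tested rose, 5 were separated upward and 1 downward, and 4 fold changes were negative. Cebpd, an inflammation-induced transcription factor, stood at 3.63, 5.21 and 2.49 FPKM in controls and 9.39, 9.85 and 13.3 FPKM in exposed libraries (log2 1.50, SE 0.29). Jak3, a kinase of blood cell cytokine receptors, went from 0.655, 0.771 and 0.836 FPKM to 1.41, 1.48 and 1.26 FPKM (log2 0.87, SE 0.19). Socs3, a feedback inhibitor of this route, was separated but did not pass, at 0.968, 1.84 and 0.856 FPKM against 2.06, 2.84 and 2.65 FPKM. Stat3 itself was at 5.64 to 5.9 FPKM in controls and 5.7 to 7.76 FPKM in exposed libraries, which overlapped.

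Acute phase and secreted defence proteins gave high folds with a wide spread among exposed libraries. Only 8 of 20 listed were tested, of which Lrg1 rose and 6 were separated upward. The summed level of the list was 7.8 to 12.1 FPKM in controls and 26.3 to 84.6 FPKM in exposed libraries. Lcn2 (lipocalin 2, an iron-siderophore binder of astrocytes and neutrophils) stood at 0, 0.0609 and 0.101 FPKM in controls and 1.24, 3.88 and 3.83 FPKM in exposed libraries. Its log2 fold change was 5.72 (SE 0.71), with an edgeR adjusted p of 0.0635 in the 6 libraries and 0.0772 in the 13. Serpina3n, a protease inhibitor of reactive astrocytes, stood at 9.16, 6.61 and 5.72 FPKM in controls and 19.2, 62.2 and 19.4 FPKM in exposed libraries, with exposed replicate 2 far above the other 2 exposed libraries. It did not pass (log2 2.23, SE 0.52, edgeR adjusted p = 0.395). Saa3, an acute phase apolipoprotein of inflamed tissue, was not tested. It held no count in controls and 0.828, 7.45 and 0.811 FPKM in exposed libraries, at least 29.4-fold above the 3-count limit.

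Complement genes that rose ranged from the initiating C1q chains to receptors and a soluble inhibitor. Of 8 components tested of 12 listed, C1qa and C1qb rose and 6 were separated upward. The summed level of the components was 78.5 to 102 FPKM in controls and 131 to 165 FPKM in exposed libraries. C1qa stood at 25.9, 38.2 and 23.8 FPKM in controls and 47.1, 48.9 and 62.9 FPKM in exposed libraries (log2 0.84, SE 0.21), and C1qb at 32.4, 38.3 and 29.8 against 45.6, 61.3 and 64 FPKM (log2 0.76, SE 0.17). Both are made in brain mainly by microglia. C4b was separated but did not pass, at 8.15 to 10.1 FPKM in controls and 11.1 to 20 FPKM in exposed libraries. C3 was not tested in the 6 libraries and stood at 0.0572, 0.0522 and 0.0431 FPKM against 0.0774, 1.01 and 0.255 FPKM, with exposed replicate 2 far above the other libraries.

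Among complement receptors and inhibitors, 4 of 10 tested rose and the same 4 were separated. C5ar1, the receptor for the C5a fragment, stood at 0.0777, 0.111 and 0.0853 FPKM in controls and 0.71, 1.32 and 0.483 FPKM in exposed libraries (log2 3.15, SE 0.46). C3ar1, the receptor for C3a, went from 0.619, 0.491 and 0.611 FPKM to 0.942, 1.88 and 1.41 FPKM (log2 1.31, SE 0.30). The soluble inhibitor Serping1 stood at 2.27 to 2.46 FPKM in controls and 3.22 to 4.74 FPKM in exposed libraries (log2 0.79, SE 0.20). The receptor list's median was 0.32, and 0.63 without control replicate 2.

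Reactive astrocyte genes gave 4 rises and genes of resting astrocytes none. Of 23 reactive genes tested, 4 rose (Gfap, Osmr, Gbp2 and Aspg), 9 were separated upward and 1 downward, and the median was 0.40. Gfap, the intermediate filament of astrocytes, stood at 42.5, 50 and 38 FPKM in controls and 109, 134 and 93.2 FPKM in exposed libraries. The lowest exposed library was above the highest control by a wide margin. Its log2 fold change was 1.36 (SE 0.17, edgeR adjusted p = 0.0635 in the 6 libraries). Aspg, a gene of reactive astrocytes, went from 0.69, 0.529 and 0.806 FPKM to 1.64, 2.14 and 1.35 FPKM (log2 1.35, SE 0.29). Timp1, an inhibitor of matrix proteases, was separated but did not pass, at 0, 0.214 and 0.31 FPKM against 0.67, 1.75 and 1.24 FPKM. Vim, the filament partner of Gfap, overlapped at 5.54 to 7.81 and 7.64 to 10.2 FPKM. S100a10 was separated downward and did not pass, at 25.5, 31.5 and 32.7 FPKM against 14.9, 16.6 and 22.6 FPKM.

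Of 15 genes of resting astrocytes, none passed and the median was 0.08. The glutamate transporter Slc1a3 stood at 50.8 to 58.6 FPKM in controls and 54.6 to 58.9 FPKM in exposed libraries, and Aldh1l1 at 8.35 to 10.2 and 7.79 to 10.7 FPKM. Gjb6, a gap junction connexin, was separated upward at 7.53 to 9.72 against 11.7 to 15.7 FPKM. Kcnj10, the potassium channel Kir4.1, was separated downward at 63 to 90.7 against 48.7 to 59.2 FPKM. Neither of these passed.

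Myeloid genes that rose lay in the activated and phagocytic groups, and none of the resting group passed. Of 21 tested genes of activated microglia, 4 rose (Fcgr2b, Ch25h, Fcgr1 and Lpl) and 10 were separated upward, with a median of 0.41, which was 0.64 without control replicate 2 and 0.21 with at least 1 CPM required in every library. The 12 resting microglia genes gave no gene past the threshold, 3 separated upward, 1 downward and a median of 0.03. P2ry12, a purine receptor of resting microglia, overlapped at 1.02 to 3.13 and 1.13 to 2.27 FPKM, as did Tmem119 at 6.18 to 7.49 and 6.94 to 10.8 FPKM.

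Receptors for the constant part of antibodies were among the myeloid genes that rose. Fcgr2b, the inhibitory receptor, stood at 0.863, 0.901 and 0.748 FPKM in controls and 1.84, 3.48 and 2.24 FPKM in exposed libraries (log2 1.58, SE 0.25). Fcgr1, the high-affinity activating receptor, went from 0.378, 0.863 and 0.797 FPKM to 1.57, 2.56 and 2.51 FPKM (log2 1.68, SE 0.35). Fcgr4, an activating receptor outside the list that was picked after its values were seen, went from 0, 0.148 and 0.0974 FPKM to 0.7, 1.93 and 1.06 FPKM (log2 3.67, SE 0.70). None of the 3 overlapped. Fcgr3 (log2 0.89, SE 0.21) and the shared signalling chain Fcer1g (log2 0.95, SE 0.22) were separated upward but did not pass, with edgeR adjusted p-values of 0.322 and 0.328.

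Other genes of myeloid cells that rose lay outside the lists and were named after their values were seen. Lilrb4a, an inhibitory receptor of myeloid cells, stood at 0.0676, 0.0578 and 0.0955 FPKM in controls and 0.762, 1.11 and 0.835 FPKM in exposed libraries (log2 3.59, SE 0.44). Hcar2, a receptor for butyrate and ketone bodies, went from 0.0673, 0.0384 and 0 FPKM to 0.987, 1.33 and 0.487 FPKM (log2 4.60, SE 0.71). Spi1, the transcription factor PU.1, went from 0.629, 0.594 and 0.463 FPKM to 1.21, 1.66 and 1.67 FPKM (log2 1.42, SE 0.27). The lysosomal protease Ctss, the NADPH oxidase subunit Cybb and the leukocyte phosphatase Ptprc (CD45) also rose, by 0.69, 1.56 and 1.15 on the log2 scale. By the rule that named genes, Ms4a6c and Ms4a6d, membrane proteins of macrophages, rose by 2.32 and 2.46. Cd244 held no count in controls and 0.166, 0.224 and 0.14 FPKM in exposed libraries, at least 18.0-fold above the 3-count limit.

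Macrophages around vessels and scavenger receptors formed another list, of which 12 of 17 were tested. Msr1 and Cd163 rose and 6 were separated upward. The list's summed level was 3.52 to 5.61 FPKM in controls and 6.87 to 10.9 FPKM in exposed libraries. Msr1, a scavenger receptor for modified lipoproteins, stood at 0.0488, 0 and 0.0153 FPKM in controls and 0.415, 1.76 and 0.255 FPKM in exposed libraries, again highest in exposed replicate 2 (log2 5.39, SE 1.11, on 4 control counts). Cd163, the receptor for haptoglobin with haemoglobin, went from 0.0934, 0.139 and 0.0528 FPKM to 0.344, 0.384 and 0.27 FPKM (log2 1.75, SE 0.40). Mrc1, the mannose receptor of these cells, was separated but did not pass, at 0.666 to 1.04 against 1.31 to 1.55 FPKM.

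Among markers of blood cells, 1 neutrophil gene rose and no monocyte, red cell or lymphocyte gene passed. For neutrophils, 5 of 15 listed genes were tested, 4 were separated upward and S100a9 rose. The list's summed level was 2.18 to 3.2 FPKM in controls and 8.74 to 13.1 FPKM in exposed libraries. S100a9, a calcium-binding protein abundant in neutrophils, stood at 0.625, 0.763 and 0.42 FPKM in controls and 2.62, 4.69 and 4.09 FPKM in exposed libraries (log2 2.60, SE 0.39). Of markers that define the cell, Ly6g was at 0 in 5 libraries and at 0.0613 FPKM in exposed replicate 3, Elane held at most 0.0537 FPKM, and the granule peptide Camp held no count in controls and 0.207 to 0.457 FPKM in exposed libraries. Of monocyte genes, 5 of 10 were tested, none passed, and the summed level was 15 to 17.1 FPKM in controls and 21.3 to 31.6 FPKM in exposed libraries. Ccr2 was at or under 0.0725 FPKM in all 6 libraries, and Ly6c2 was at 0 in controls and 0.0567 to 0.0808 FPKM in exposed libraries.

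Red cell genes differed between exposed libraries. None of 5 tested of 8 listed passed and 3 were separated upward. Their summed level was 68.8 to 85.7 FPKM in controls and 82 to 216 FPKM in exposed libraries. Hbb-bs, a beta globin, stood at 40.7, 32.4 and 31.8 FPKM in controls and 37.5, 71.8 and 102 FPKM in exposed libraries, so exposed replicate 1 lay among the controls. Alas2, the red cell enzyme of haem synthesis, stood at 0.712, 0.835 and 0.67 FPKM against 1.04, 2.71 and 3.05 FPKM. The globin genes are near-identical copies, whose reads the counting could have split. Lymphocyte genes were too low for all but 2 of 14 to be tested, and their summed level overlapped at 2.56 to 3.18 and 2.67 to 3.39 FPKM. Whether blood left in the tissue or cells that entered it contributed to the adhesion, acute phase, Fc receptor and interferon groups was not tested.

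Interferon-stimulated genes formed the longest list tested. Of 38 tested, 36 fold changes were positive, 23 genes were separated upward and none downward, and the median was 0.76, and 0.50 without exposed replicate 3. Over all genes tested 6.24% were separated upward. The 6 that rose were Cxcl10, Gbp2, Iigp1, Ifitm2, Ifitm3 and Parp14. The summed level was 56.7 to 80.7 FPKM in controls and 100 to 153 FPKM in exposed libraries. Gbp2 stood at 0.873, 0.93 and 1.12 FPKM in controls and 2.38, 3.6 and 3.47 FPKM in exposed libraries (log2 1.69, SE 0.25, edgeR adjusted p = 0.087 in the 6 libraries). Iigp1, an immunity-related GTPase, went from 0.812, 0.973 and 0.686 FPKM to 1.6, 2.06 and 2.12 FPKM (log2 1.21, SE 0.25). Ifitm3, which blocks entry of viruses, went from 17.7, 16.2 and 11.1 FPKM to 21.8, 37.2 and 37.2 FPKM (log2 1.09, SE 0.26). Classic antiviral genes were separated without passing. Isg15, a ubiquitin-like protein, stood at 1.03, 1.47 and 1.46 FPKM against 2.58, 2.03 and 4.71 FPKM, and Rsad2 (viperin) at 0.215, 0.291 and 0.582 against 0.969, 0.787 and 0.979 FPKM. Of 29 listed genes with a promoter in the RefSeq table, 17 (58.6%) held the interferon response core printed above for Cxcl10 and Gbp2, against 8.18% of all genes with a promoter. That share follows from which genes were listed and uses no value of these libraries.

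Antigen presentation genes gave 1 rise in class I and none among the class II genes tested in the 6 libraries. Of 12 tested class I genes, H2-Q4 rose and 6 were separated upward, with a median of 0.47. H2-Q4, a class I molecule whose reads may be shared with near-identical family members, stood at 1.11, 0.873 and 0.517 FPKM in controls and 1.81, 2.33 and 1.69 FPKM in exposed libraries (log2 1.21, SE 0.30). H2-D1 (9.55 to 12.5 against 14.2 to 18 FPKM) and the immunoproteasome subunit Psmb8 (0.509 to 0.703 against 1.17 to 1.66 FPKM) were separated without passing. The 6 tested class II genes gave 1 separated gene and a median of 0.78, which was 0.24 without exposed replicate 3. Cd74, the invariant chain of class II, stood at 1.82, 1.55 and 1.16 FPKM in controls and 2, 3.83 and 5.69 FPKM in exposed libraries. H2-Eb1 was at 1.57 and 1.88 FPKM in exposed replicates 1 and 2, within the control range of 1.1 to 2.25 FPKM, and at 4.76 FPKM in exposed replicate 3. Ciita, the master regulator of class II genes, was the 1 gene that rose in the fit of 13 libraries and was too low to be tested in the 6. It held no count in controls and 0.0651, 0.104 and 0.0372 FPKM in exposed libraries, at least 6.77-fold above the 3-count limit.

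Sensors of microbes and damage gave 2 rises (Pycard and Tlr1) among 20 tested, 11 separated upward and a median of 0.69. Pycard, the inflammasome adaptor ASC, stood at 0.583, 0.577 and 0.578 FPKM in controls and 1.08, 1.39 and 1.16 FPKM in exposed libraries (log2 1.06, SE 0.23). Tlr1, a partner of Tlr2 in sensing lipopeptides, went from 0.0633, 0.181 and 0.0596 FPKM to 0.523, 0.594 and 0.261 FPKM (log2 2.08, SE 0.51). Tlr2 was separated without passing, at 0.602 to 0.819 against 1.42 to 3.56 FPKM, as was the adaptor Myd88 at 1.1 to 1.39 against 1.65 to 1.94 FPKM. Casp1 overlapped at 4.25 to 7.65 and 4.5 to 6.84 FPKM.

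On log2(FPKM + 1), where the pseudocount shrinks the fold changes of genes near or under 1 FPKM, medians were lower. They were 0.34 for interferon-stimulated genes, 0.19 for microbial sensors, 0.17 for reactive astrocyte genes, 0.26 for activated microglia, 0.20 for complement receptors and inhibitors and 0.34 for class II genes.

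**Figure D3:**
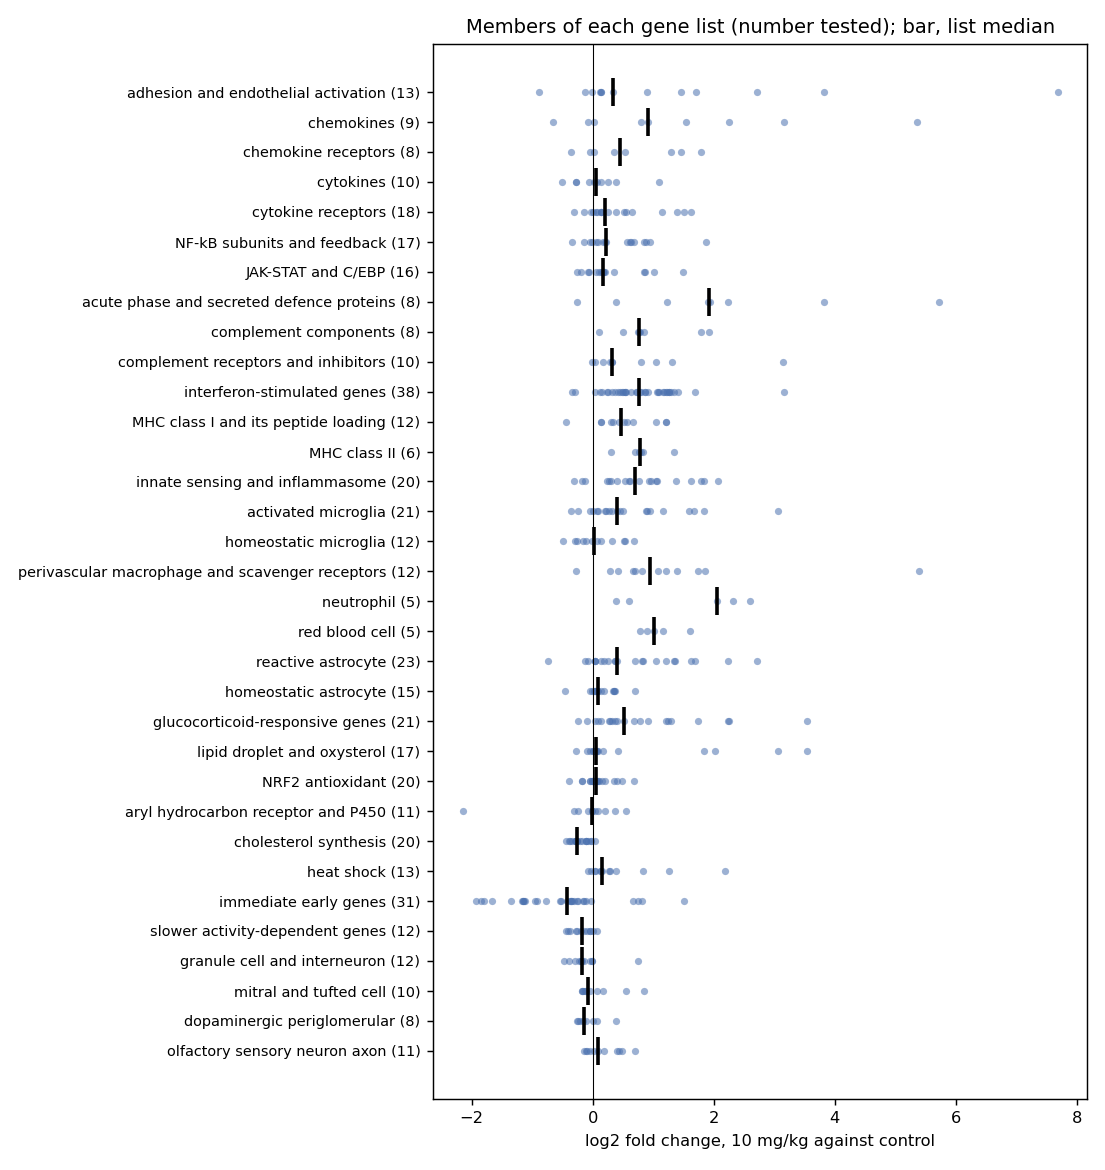
Log2 fold change of each tested member of 33 gene lists (points, horizontal axis), with the number tested in brackets and a bar at the list median. Medians lie right of 0 for the interferon, complement receptor and reactive astrocyte lists, near 0 for resting glia and most neurons, and left of 0 for immediate early and cholesterol genes. Bars of lists with many untested members, such as chemokines, acute phase proteins and neutrophils, are not read. Their low genes were tested only through the exposed libraries. The chemokine bar moves to -0.11 when at least 1 CPM is required in every library.

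Most immediate early genes had negative fold changes, and 3 fell. Of 31 tested, 27 fold changes were negative, 15 genes were separated downward and 4 upward, and 17 were lower at an unadjusted p under 0.05, with a median of -0.42. Over all genes tested 4.25% were separated downward. Npas4, Ier2 and Btg2 fell and Ier3 rose. The summed level of the list was 440 to 671 FPKM in controls and 294 to 398 FPKM in exposed libraries.

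Npas4, a transcription factor that neuronal calcium entry induces, stood at 15.2, 23.8 and 22.2 FPKM in controls and 4.98, 4.45 and 7.58 FPKM in exposed libraries. The highest exposed library was below the lowest control. Its log2 fold change was -1.85 (SE 0.24, edgeR adjusted p = 0.0635 in the 6 libraries). Btg2, an antiproliferative gene, went from 14.4, 22.8 and 17.5 FPKM to 8.03, 6.2 and 10 FPKM (log2 -1.17, SE 0.22), and Ier2 from 8.37, 13.9 and 11.5 FPKM to 4.65, 4.32 and 6.3 FPKM (log2 -1.15, SE 0.24). Both pairs of groups were separated.

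The best-known activity genes were separated downward but did not pass in either fit. Fos, a subunit of AP-1, stood at 18.2, 34.7 and 27.6 FPKM in controls and 6.53, 5.48 and 9.25 FPKM in exposed libraries (log2 -1.93, SE 0.27, edgeR adjusted p = 0.087 in the 6 libraries and 0.059 in the 13). Nr4a1, an orphan nuclear receptor, stood at 58.6, 108 and 115 FPKM against 24.9, 29.1 and 34.8 FPKM (log2 -1.66, SE 0.25). Arc, a synaptic protein, stood at 42.1, 64.9 and 59.7 FPKM against 19.3, 13.9 and 31.9 FPKM (log2 -1.36, SE 0.30). In all 3 genes control replicate 1 was the lowest control, nearest to the exposed libraries. Egr1 was separated as well, at 30.2, 48.3 and 51.9 FPKM against 16.5, 16.7 and 26.4 FPKM.

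Not all members took the same direction. Jun was at 17.1 to 24.4 FPKM in controls and 18.1 to 23.4 FPKM in exposed libraries. Ier3, a gene that NF-kB induces, stood at 1.38, 2.75 and 1.68 FPKM in controls and 4.23, 6.64 and 5.99 FPKM in exposed libraries (log2 1.51, SE 0.33). Klf2 and Klf4, transcription factors of endothelium and other cells, were separated upward without passing, by 0.75 and 0.66 on the log2 scale. Among 12 slower activity-dependent genes, Scg2, a granule protein of neurons, fell from 117, 123 and 117 FPKM to 84.1, 83.9 and 99.8 FPKM (log2 -0.42, SE 0.12). The list's median was -0.17, with 2 separated downward. Bdnf overlapped at 1.54 to 1.93 and 1.01 to 2.12 FPKM.

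**Figure D4:**
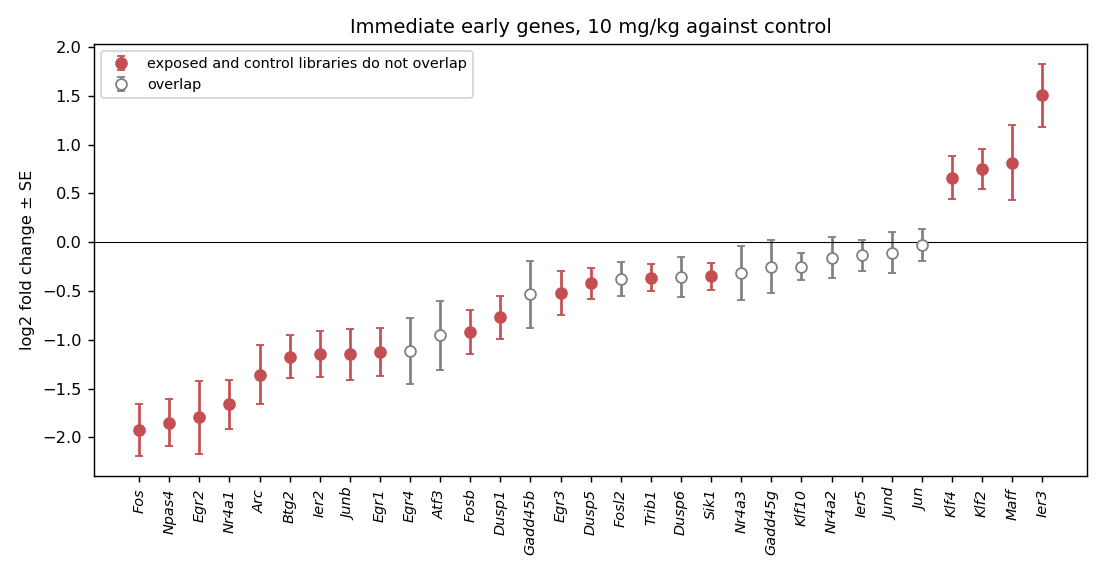
Log2 fold change with its standard error for the 31 tested immediate early genes, in order of size; filled points are genes whose exposed and control libraries do not overlap. Fos, Npas4, Egr2 and Nr4a1 lie lowest and Ier3 highest, and 27 of the 31 values are under 0.

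Genes that respond to glucocorticoids gave 5 rises. Of 21 tested, Plin4, Hif3a, Galnt15, Map3k6 and Mertk rose, 11 were separated upward and none downward, and the median was 0.52. Over all genes tested 0.521% rose and 6.24% were separated upward. Hif3a, an inhibitory partner of the hypoxia factors, stood at 0.273, 0.161 and 0.307 FPKM in controls and 1.58, 0.784 and 1.07 FPKM in exposed libraries (log2 2.23, SE 0.35). Mertk, a receptor through which phagocytes and astrocytes take up dying cells, went from 3.34, 2.86 and 2.94 FPKM to 5.57, 5.83 and 5.73 FPKM, with the narrowest spread of the 5 in exposed libraries (log2 0.91, SE 0.12). Map3k6 went from 0.226, 0.252 and 0.213 FPKM to 0.995, 0.611 and 0.723 FPKM (log2 1.74, SE 0.29), and Galnt15 from 0.0792, 0.148 and 0.163 FPKM to 0.73, 0.378 and 0.785 FPKM (log2 2.26, SE 0.38). The kinase Sgk1 was separated without passing, at 2.96, 2.98 and 3.22 FPKM against 7.57, 3.73 and 9.81 FPKM, with exposed replicate 2 close to the controls. The standard marker Fkbp5 overlapped at 2.71 to 3.17 and 1.61 to 4.26 FPKM, and Per1 and Klf9 overlapped too. The metallothioneins Mt1 (98.2 to 174 against 197 to 265 FPKM) and Mt2 (70.5 to 116 against 163 to 171 FPKM), which also respond to metals, were separated without passing.

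Tmem252, a membrane protein named by the rule, had the exposed pattern of Sgk1. It stood at 0.106, 0.256 and 0.199 FPKM in controls and 3.61, 0.803 and 3.51 FPKM in exposed libraries, and rose by 3.75 (SE 0.62) on the log2 scale.

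The list of lipid droplet and oxysterol genes held 4 rises among 17 tested and 13 genes that were not separated, so its median was 0.05. Beside Plin4 and Acer2 these were Ch25h and Lpl. Ch25h, which makes the antiviral oxysterol 25-hydroxycholesterol in macrophages, stood at 0.0963, 0.137 and 0.317 FPKM in controls and 1.16, 0.952 and 2.44 FPKM in exposed libraries (log2 3.06, SE 0.56). Lpl, lipoprotein lipase, went from 0.0679, 0.0967 and 0.12 FPKM to 0.306, 0.329 and 0.393 FPKM (log2 1.84, SE 0.33). The related droplet proteins Plin2 (1.5 to 2.13 against 1.6 to 2.26 FPKM) and Plin3 (7.01 to 7.95 against 7.08 to 9.25 FPKM) overlapped.

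Cholesterol synthesis genes leaned the other way without any passing. Of 20 tested, 19 fold changes were negative and 3 genes were separated downward (Insig1, Msmo1 and Hsd17b7), with a median of -0.25. Insig1, a sensor that restrains the pathway and is itself induced with it, stood at 21.6, 26.5 and 21.6 FPKM in controls and 16.1, 14.7 and 20.9 FPKM in exposed libraries (log2 -0.43, edgeR adjusted p = 0.784). Exposed replicate 2 was the lowest exposed library for this list and exposed replicate 3 was level with the controls.

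Few genes of oxidative stress and xenobiotic metabolism passed. Of 20 NRF2 antioxidant targets tested, none passed, 3 were separated upward and the median was 0.06. Hmox1, haem oxygenase, was separated at 1.36, 1.66 and 1.35 FPKM against 2.06, 2.3 and 2.69 FPKM (log2 0.68, SE 0.22, edgeR adjusted p = 0.635). Nqo1 overlapped at 2.52 to 4.6 and 3.6 to 4.06 FPKM. Aryl hydrocarbon receptor targets and P450 genes gave no rise among 11 tested, and 3 were separated downward. Cyp1b1, a target of that receptor, overlapped at 1.63 to 3.52 and 3.34 to 3.87 FPKM, and Cyp1a1 was at or under 0.141 FPKM in all 6 libraries. Cyp2e1, an ethanol-inducible P450, fell from 1.03, 2.07 and 1.54 FPKM to 0.16, 0.622 and 0.279 FPKM (log2 -2.15, SE 0.50). The iron exporter Slc40a1 (ferroportin) fell as well, from 1.56, 1.17 and 1.11 FPKM to 0.694, 0.666 and 0.706 FPKM (log2 -0.89, SE 0.19), while 16 genes of iron handling had a median of 0.05.

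Heat shock genes split by library. Hspa1b, a stress-induced chaperone, stood at 0.974, 1.12 and 0.83 FPKM in controls and 5.71, 1.45 and 6.34 FPKM in exposed libraries and rose (log2 2.19, SE 0.50). Its near-identical neighbour Hspa1a, with which it may share reads, was separated without passing at 1.73 to 2.43 FPKM in controls and 6.75, 2.57 and 6.45 FPKM in exposed libraries. In both genes exposed replicate 2 lay just above the controls. The 13 tested gave a median of 0.15. No gene of the unfolded protein response (18 tested, median 0.30) or of the p53 list (9 tested, median 0.14) passed. Of 16 clock genes, Nr1d1 (REV-ERB alpha) rose from 19.1, 22.2 and 19.9 FPKM to 28.1, 32 and 29 FPKM (log2 0.54, SE 0.12), and the core genes Clock and Arntl overlapped. The abundant clock output gene Tef was separated without passing, at 17.7 to 18.6 against 23.1 to 24.6 FPKM.

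Lists for neurons and myelin of the bulb gave no gene past the threshold. Medians were 0.10 for sensory axons (11 tested), -0.08 for mitral and tufted cells (10), -0.13 for dopaminergic periglomerular cells (8), -0.18 for granule cells and interneurons (12), 0.03 for neuroblasts (11), 0.09 for ensheathing cells (11), 0.06 for myelin (10) and 0.19 for oligodendrocyte precursors (8). In the granule cell list 11 of 12 fold changes were negative and 3 genes were separated downward, among them Sp8, a transcription factor of bulb interneurons, at 37.9, 44.1 and 36.9 FPKM in controls and 27.2, 35.1 and 28.8 FPKM in exposed libraries. Gad1 was separated too, at 199 to 228 against 162 to 191 FPKM. Omp overlapped, at 67.5, 63 and 32.9 FPKM in controls and 33.5, 51 and 68 FPKM in exposed libraries.

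Genes that fell also included transporters, channels and matrix genes, with modest folds. Rhcg, an ammonium transporter, went from 4.63, 5.89 and 6.42 FPKM to 2.38, 2.73 and 2.77 FPKM (log2 -1.11, SE 0.18). Lama3, a laminin chain and the only gene of 16 tested in the meningeal and matrix list to pass, went from 7.29, 5.12 and 10.1 FPKM to 3.79, 3.98 and 2.64 FPKM (log2 -1.11, SE 0.25). The potassium channel Kcnh8, the secreted matricellular protein Wisp1, the phospholipid transfer protein Pltp and the receptor kinase Alk fell by 0.93, 0.84, 0.65 and 0.53 on the log2 scale. The phosphatase regulator Ppp1r16b, one of the most abundant genes that fell, went from 44.2, 40 and 50.5 FPKM to 32, 32.3 and 31.2 FPKM (log2 -0.49, SE 0.11). None of these groups overlapped. Crhr1, the receptor for corticotropin-releasing hormone, fell from 27.6, 27.9 and 30.4 FPKM to 19.8, 21.3 and 20.6 FPKM (log2 -0.48, SE 0.11), and was chosen after its values were seen.

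The 3 exposed libraries did not show the groups to the same extent. Averaged over the tested members of a list as log2 CPM above the control mean, acute phase genes stood at 1.05, 2.01 and 1.59 in exposed replicates 1, 2 and 3, and reactive astrocyte genes at 0.32, 0.80 and 0.65. Exposed replicate 2 was highest in both, and it was also highest for Ccl12, Lrg1, Serpina3n, Msr1 and Tlr2. Red cell genes stood at 0.19, 1.04 and 1.56 and class II genes at 0.32, 0.32 and 1.13, highest in exposed replicate 3. Immediate early genes stood at -0.73, -0.67 and -0.27. The last value, of the deepest exposed library, lay between those of control replicate 1 (-0.29) and the other 2 controls (0.20 and 0.09), so as a list mean the groups overlapped. Heat shock genes stood at 0.49, 0.05 and 0.62, lowest in exposed replicate 2. Only 8 of 20 acute phase and 5 of 8 red cell genes were tested. The filter kept genes near 0 in controls through the exposed libraries, so height above the controls is partly built in. For such lists only the differences among exposed libraries are read.

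Markers of neighbouring tissue also differed between exposed libraries. Of 11 genes of cortex and striatum, none passed, and the list stood at 0.17, -0.04 and 0.98 above the control mean in exposed replicates 1, 2 and 3, against 0.05, 0.05 and -0.10 in the controls. Exposed replicate 1 thus lay a little above the controls, replicate 2 among them and replicate 3 far above. Neurod6, of cortical neurons, stood at 3.62 FPKM in exposed replicate 3 against at most 1.02 FPKM elsewhere. The list's summed level was 20.2 to 24.1 FPKM in controls and 22.3 to 38.2 FPKM in exposed libraries. Nasal epithelium genes were low and scattered, with a summed level of 0.429 to 3.76 FPKM in controls and 0.381 to 5.15 FPKM in exposed libraries, and 2 of 8 at 0 in all 6. Choroid plexus and ependyma genes summed to 8.93 to 13.9 and 13.9 to 23.1 FPKM. What neighbouring tissue adds to the results above was not tested.

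**Figure D5:**
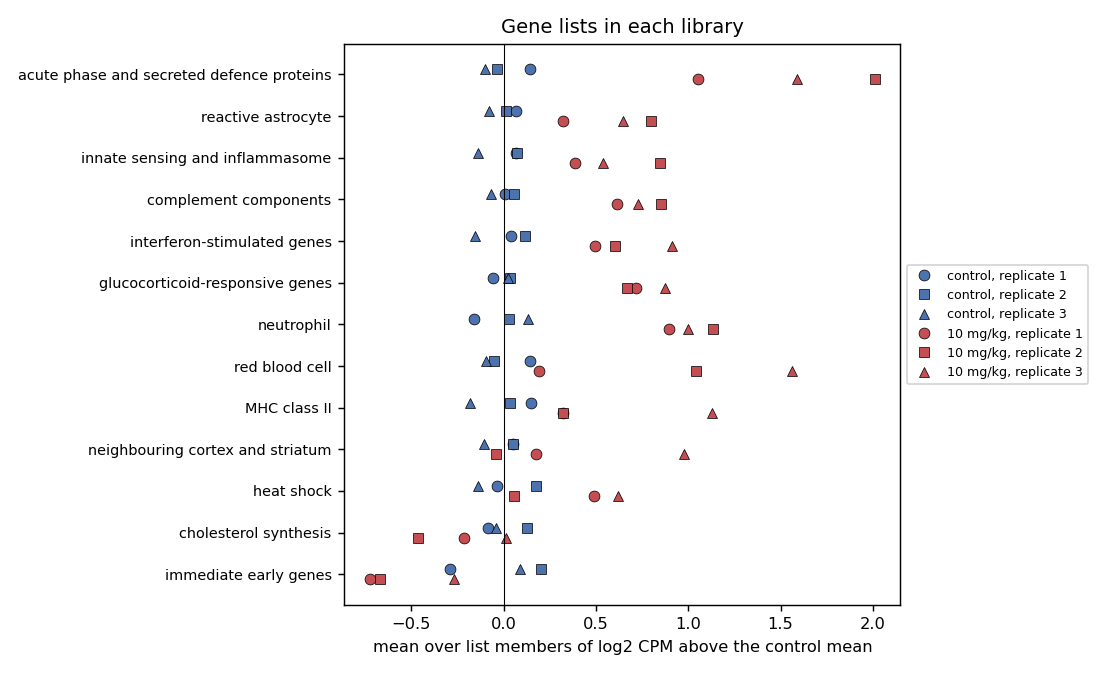
Mean over the tested members of each list of log2 CPM above the control mean (horizontal), 1 point per library, with blue for controls and red for exposed libraries. Acute phase, astrocyte, complement and interferon lists lie right of every control in all 3 exposed libraries, while red cell, class II, cortex and heat shock lists spread widely among exposed libraries. For the acute phase list, with 8 of 20 genes tested, the height above controls is partly built in by the filter on low counts.

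Whether the response differed from that at 3 mg/kg was tested with the contrast of the 2 responses in the fit of 13 libraries. Dose and set cannot be told apart in this contrast, since each dose was given in 1 set only. The sets also differ in Xist and Y-linked genes, so sex as read from these genes cannot be told apart from dose either. Of 17467 genes, 1 passed (0.00573%), and that gene was Icam1. The count was 2 without a filter on low counts, 6 without control replicate 1 of the 2nd set, 2 without exposed replicate 1 of that set, and 0 or 1 without any other single library. In the 1st set Icam1 stood at 1.26 to 1.78 FPKM in 4 controls and 1.76 to 2.57 FPKM in 3 libraries at 3 mg/kg, a log2 fold change of 0.63 (SE 0.18). The high-dose response exceeded that by 2.08 (SE 0.28, edgeR adjusted p = 0.0433). Controls of the 2nd set, at 0.496 to 0.614 FPKM, were lower than controls of the 1st. Leaving out single libraries moved the edgeR adjusted p for Icam1 to between 0.0336 and 0.221, with the difference between 1.94 and 2.20, and the call was kept only where the library left out was the first control or the first exposed replicate of the 2nd set.

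For the other genes called in the 6 libraries, the same contrast gave 2.28 for Cxcl10, 1.44 for Plin4 and 1.11 for Acer2, none of which passed. Their log2 fold changes at 3 mg/kg were 0.87, 2.09 and 0.91. Npas4 stood at 22 to 26.1 FPKM in controls of the 1st set and 7.65 to 10.6 FPKM at 3 mg/kg, a log2 fold change of -1.43. Its contrast of -0.42 (SE 0.28) did not pass. Gbp2 came next after Icam1, with 1.82 to 2.71 FPKM in controls of the 1st set, 1.76 to 2.3 FPKM at 3 mg/kg, and a contrast of 1.92 (SE 0.29, edgeR adjusted p = 0.0864).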

How the data were processed

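RNA of mouse olfactory bulb was isolated with RNeasy columns and made into stranded total RNA libraries, per the labels' protocols. The authors deposited 1 table with a read count and an FPKM value for each gene and library, per the file headers. HISAT2 and the mm10 build are named in the submitters' processing notes; the sources used here do not give the counting program, the annotation or the use of strand. The deposited FPKM equalled count divided by total and a gene length common to all libraries within a relative deviation of 1.16e-06 over 5332 genes, so they hold no scaling beyond the total.

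Tests used the deposited counts as they stand, with TMM factors and filterByExpr, which kept 17097 of 23844 genes with a count in the 6 libraries. The edgeR (4.0.16, R 4.3.3) quasi-likelihood test with robust dispersions and Benjamini-Hochberg adjustment had 4 residual degrees of freedom in the 6 libraries and 9 in the fit of all 13. Each SE of a fold change was derived as the absolute log2 fold change over the square root of the test's F statistic, and was not fitted directly. The script was checked on simulated data. Alternatives used DESeq2 1.42.0, limma 3.58.1 (voom, and trend on log2 FPKM with a pseudocount of 1 or 0.1), other scalings and filters, the replicate number as a block, and each library left out. No 2 libraries of a group were alike within sampling noise (chi-square per gene 13.7 to 46.5).

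The comparison and the gene lists were chosen with earlier results of these data known. Named genes were those called in the 6 libraries; of those called in 13 libraries with at least 1 CPM and no overlap, the 12 largest rises and 12 largest falls; of genes at 100 CPM or more without overlap, the 4 rises and 4 falls with the smallest p; and up to 3 members of each list with the smallest p. Further list members were named after their values were seen. Values of some genes are not reported here. Counting intervals (95%) and the limit of 3 counts cover counting error only. List symbols shared by more than 1 gene (3 in all) were left out. Of the genes with a count, 23645 matched GENCODE M21, 18596 with identical coordinates. Named genes that overlap a gene on the other strand include Icam1, Cxcl10, Plin4, Gfap and Gbp2, and without stated use of strand their reads cannot be told apart from those of the partner. Promoters came from RefSeq on GRCm38.p6.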

Additional observations from a re-analysis of the deposited data

Results flagged for a closer look

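For Icam1, the response at 10 mg/kg differed from that at 3 mg/kg. No other of 17467 genes passed the test in this fit, while 2 genes passed without a filter on low counts and 0 to 6 with single libraries left out. The difference of the log2 fold changes was 2.08 (SE 0.28, edgeR adjusted p = 0.0433), tested as a contrast of contrasts in the fit of 13 libraries, and Icam1 was higher than its controls in 3 of 3 exposed libraries at 10 mg/kg. The adjusted p in edgeR lay between 0.0336 and 0.221 when single libraries were left out. Each dose was given in 1 set, and the sets differ in Xist and Y-linked genes. Dose, set and sex as read from these genes therefore cannot be told apart. Groups of 3 libraries were not searched for single outlying values.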

How the results depend on the processing

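Against 4 genes higher and 0 lower in the 6 libraries, the fit of all 13 gave 91 and 21, DESeq2 119 and 27, no filter 21 and 2, and leaving out the deepest control and exposed library 5 and 2 (chosen after seeing the data). Limma on log2(FPKM + 1) gave 2 higher and a minimum of 1 CPM in every library 1 higher. Limma-voom, log2(FPKM + 0.1), DESeq2 size factors, total counts, non-robust dispersions and totals without mitochondrial and rRNA-bearing genes gave 4 higher, but voom and log2(FPKM + 0.1) shared only 2 of the 4 genes. Leaving out single libraries gave 0 to 6 higher and 0 to 1 lower, and kept 0 to 4 of the 4 genes. The difference between doses gave 2 genes without a filter and 0 to 6 with single libraries left out. The cause was not tested.

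With the replicate number as a block (replicate block), 0 genes were higher and 0 lower, with 660 at an unadjusted p under 0.05. Deviations of same-numbered control and exposed libraries correlated at 0.135, -0.196 and -0.397, and those of differently numbered ones at -0.416 to 0.509. With 3 libraries a group, deviations from the group mean depend on each other. These values therefore cannot settle whether the numbers pair the libraries.

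Over 110 genes given with a fold change, call or separation and 19 alternatives, no fold change changed sign. Such genes were chosen by their values in these same libraries. A change of sign was therefore hardly possible, and its absence is no evidence of stability. Of 2064 values, 32 lost a call and 175 gained one. Of 32 genes given only by overlapping levels, 22 changed sign under at least 1 alternative and none was called. Medians of 13 of 49 lists changed sign, among them chemokines, at -0.11 with a minimum of 1 CPM. With 3 libraries a group, and counts under 10 per library for many of the genes with the highest folds, fold sizes of low genes are imprecise.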
